A study of Drosophila melanogaster with 9 samples.

Results

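The 9 genes described here encode transporters and enzymes of the eye pigment pathways of Drosophila melanogaster. They are w, st and bw, which encode ABC transporter subunits, v and cn of the ommochrome branch, and Pu, pr, Sptr and CG12116 of the pteridine branch. They were taken by gene name from 14909 genes listed in at least 1 of the deposited tables, and all 9 were listed in both. The group was chosen by measured values of 2 of its genes. It was picked because w differed between the mutant lines and because CG12116 was low in kah-deltaATG alone, so the values of w and CG12116 are given without a test in every comparison. The other 7 genes belong to the group by function.

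RNA-seq was carried out on total RNA of whole embryos collected 5 to 16 h after egg laying, with 3 libraries for each of 3 genotypes. Both mutants carry deletions in Kah, which encodes a Snail/Scratch family transcription factor. The kah-deltaATG allele lacks the start of the coding sequence in the second exon, and the kah-deltaznf allele lacks the DNA-binding zinc fingers but keeps the reading frame. Both alleles were made with CRISPR/Cas9 in vasa-Cas9 embryos and crossed to balancers of the third chromosome, and w1118 embryos, labelled wild type, were the control. The w1118 strain is named for a partial deletion allele of w. The state of w and of the rest of the genome outside Kah in the mutant lines is not given in the sources used here, so that an effect of the allele cannot be told apart from one of the line. The labels call the 3 libraries of a genotype biological replicates, but the methods give 1 collection of embryos for the replicates of each genotype. All p-values here therefore measure only the spread between these libraries, which may be technical.

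Eye colour in flies comes from brown ommochromes, made from tryptophan, and red pteridines, made from GTP. The White protein pairs with Scarlet to carry ommochrome precursors and with Brown to carry pteridine precursors into pigment granules. The first steps of the pteridine branch also make tetrahydrobiopterin, the cofactor of the aromatic amino acid hydroxylases and of nitric oxide synthase, and Malpighian tubules and the fat body use parts of both pathways. Embryos of this age have no pigmented eye. The defining photoreceptor genes ninaE, the major rhodopsin, and trp, the light-activated channel, were at mean normalized counts of at most 6.04 in any genotype, whereas the summed counts of the 5 listed adult eye markers, most of them from the rhodopsin genes Rh4, Rh5 and Rh6, were 218 to 228 in kah-deltaATG, 142 to 206 in kah-deltaznf and 267 to 329.6 in w1118.

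Between 17990440 and 20036769 reads per library lay on listed genes. Levels are normalized counts, the reads of a gene divided by a size factor of its library, with all 9 libraries on 1 scale. Fold changes are log2 differences of normalized counts plus 1, tested with limma and adjusted by Benjamini-Hochberg over all genes tested, and calls needed an adjusted p of 0.05 or less with a log2 difference of 0.59 or more in size. By this rule 25.3% of 10972 genes were called in kah-deltaATG against w1118, 49.3% of 10957 in kah-deltaznf against w1118 and 18.3% of 11115 in kah-deltaznf against kah-deltaATG. Kah itself had 1599 ± 81.3 in kah-deltaATG, 725 ± 50.7 in kah-deltaznf and 363 ± 7.64 in w1118 (SD, n = 3 each). These counts cover the whole gene and so do not check either deletion. In 3 libraries (kah-deltaznf replicate 1 and w1118 replicates 2 and 3) 8.67% to 11.2% of reads were mitochondrial, against 15.3% to 16.6% in the other 6.

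The largest fold changes of the group were found for the neighbouring genes Sptr and CG12116, in opposite directions and in different mutants. Sptr rose 10.1-fold in kah-deltaznf over w1118 and CG12116 was at 0.0524 times its w1118 level in kah-deltaATG. The ommochrome enzyme gene v fell in both mutants, Pu fell in kah-deltaznf, pr rose in kah-deltaznf, w was 8.29-fold higher in kah-deltaznf than in w1118, and st and bw were not called. Of the 6 genes tested among the 7 that did not enter the choice, 0 were called higher and 1 lower in kah-deltaATG, and 2 higher and 2 lower in kah-deltaznf, where 14.7% and 10.6% of all genes tested in kah-deltaATG and 23.8% and 25.5% of those in kah-deltaznf were called higher and lower. Among the 6, pr alone was higher in kah-deltaATG at an unadjusted limma p under 0.05, and edgeR and DESeq2 called 0 higher there. The log2 difference of pr, 0.54 (limma adjusted p = 3.0e-04), passed the adjusted limit there and missed a call by the fold limit alone. In kah-deltaznf against kah-deltaATG 1 of the 6 was called higher and 1 lower, where 5.46% and 12.8% of all genes were. The libraries of the 2 genotypes did not overlap for 2 of the 6 in kah-deltaATG and 4 of the 6 in kah-deltaznf against w1118, and for 4 of the 6 between the mutants, beside 58.2%, 74.5% and 59.4% of all genes tested. The levels are those of whole embryos, in which fewer cells that express a gene and less RNA of it per cell cannot be told apart.

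**Figure D1:**
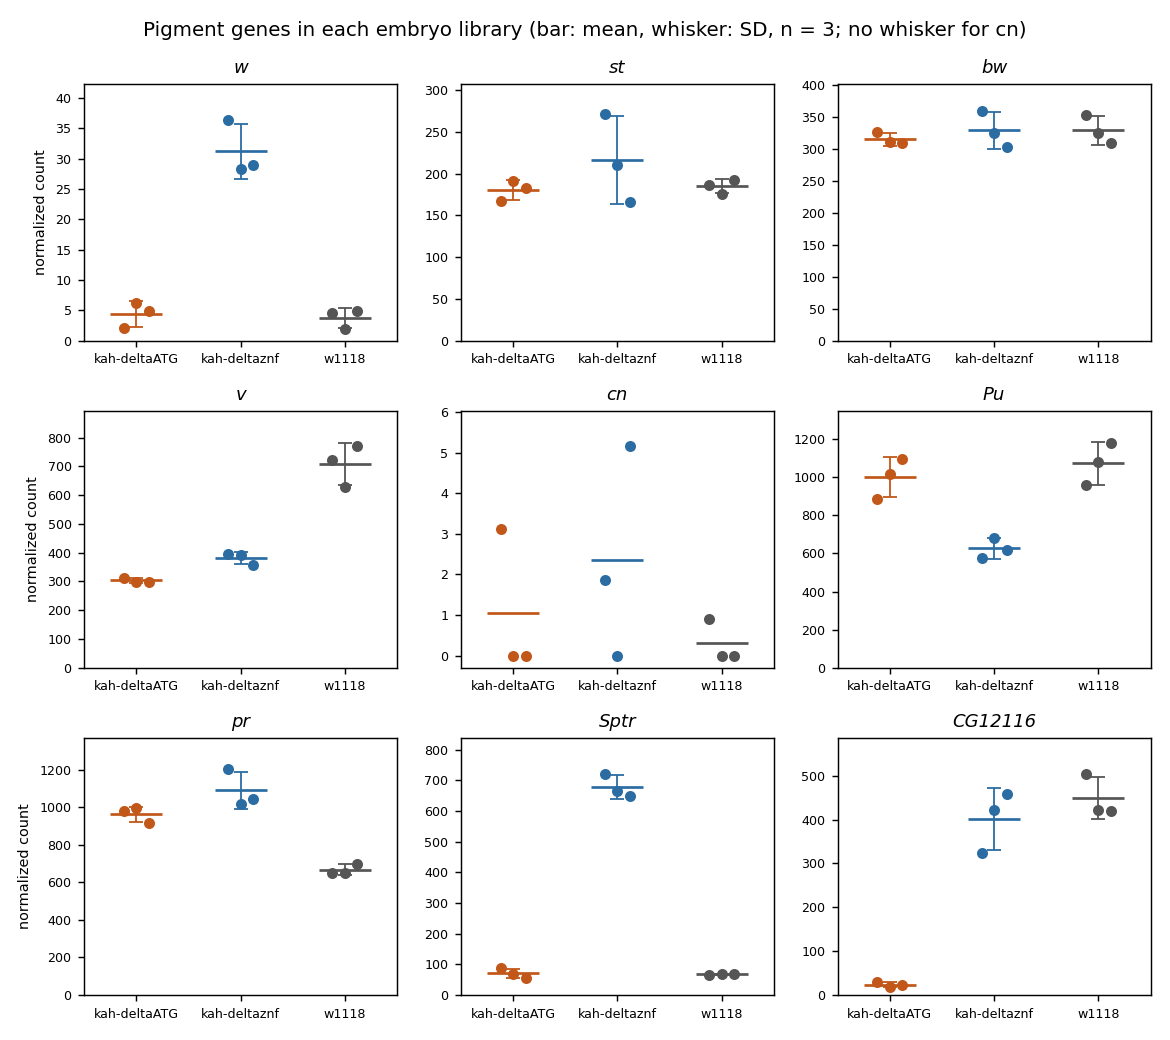
Normalized counts (y axis, linear) of the 9 pigment genes in each of the 3 libraries of kah-deltaATG, kah-deltaznf and w1118; bars are means and whiskers SDs (n = 3), and cn has no whisker. Sptr and w are high in the 3 kah-deltaznf libraries alone, CG12116 is low in the 3 kah-deltaATG libraries alone, and v is high in the 3 w1118 libraries.

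Among the transporter genes, w (X, 2790599 to 2796466, minus strand) was close to the detection limit outside kah-deltaznf. The w gene had 2, 6 and 5 reads in the kah-deltaATG libraries, 39, 27 and 28 in kah-deltaznf and 5, 2 and 5 in w1118. All 3 kah-deltaznf libraries were above the other 6, which overlapped with each other. On the scale of normalized counts w averaged 4.43 ± 2.13 in kah-deltaATG, 31.2 ± 4.53 in kah-deltaznf and 3.77 ± 1.64 in w1118 (SD, n = 3 each). It passed the filter on low values in kah-deltaznf through the mutant libraries alone and was left out of the kah-deltaATG fit. The log2 fold change of w was 2.83 against w1118 and 2.65 against kah-deltaATG, both in kah-deltaznf, which describes what the group was chosen for, and it moved to 2.08 and 1.96 with a pseudocount of 5. A level of 31.2 remained the second lowest of the group in kah-deltaznf.

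The st gene (3L, 16497651 to 16500460, plus strand) encodes the White partner for ommochrome precursors. It had 168, 191 and 183 normalized counts in kah-deltaATG, 272, 210.3 and 167 in kah-deltaznf and 187, 176 and 193 in w1118. The 3 genotypes overlapped, and kah-deltaznf replicate 1, a library of low mitochondrial share, was the highest of the 9. The log2 fold change of st was -0.03 (SE 0.11, limma adjusted p = 0.83) in kah-deltaATG and 0.20 (SE 0.17, limma adjusted p = 0.31) in kah-deltaznf against w1118, with 95% intervals of -0.29 to 0.22 and -0.17 to 0.57. The partner for pteridine precursors, bw (2R, 23527805 to 23538499, minus strand), had 327, 311 and 309 in kah-deltaATG, 359.6, 325 and 303 in kah-deltaznf and 354, 326 and 309 in w1118. Its genotypes overlapped as well. The log2 fold change of bw was -0.05 (SE 0.10, limma adjusted p = 0.66) in kah-deltaATG and 0.00 (SE 0.11, limma adjusted p = 0.99) in kah-deltaznf, with 95% intervals of -0.27 to 0.16 and -0.25 to 0.25. Exons of bw and of mi on the opposite strand share 456 bases, and the strand setting of the counting was not stated, so that reads of both genes may mix there. For mi itself the log2 difference was 0.42 in kah-deltaATG (limma adjusted p = 0.0034) and 0.62 in kah-deltaznf (limma adjusted p = 1.0e-04).

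In the ommochrome branch, v (X, 10923972 to 10925631, plus strand) encodes tryptophan 2,3-dioxygenase, the first enzyme. It had 313, 299 and 297 normalized counts in kah-deltaATG, 394, 390.3 and 357 in kah-deltaznf and 721, 629 and 772 in w1118. The highest mutant library lay well below the lowest w1118 library. The v gene fell in both mutants, with a log2 difference of -1.21 (SE 0.10, limma adjusted p = 1.1e-05) in kah-deltaATG and -0.89 (SE 0.11, limma adjusted p = 2.9e-05) in kah-deltaznf against w1118. Both comparisons used the same w1118 libraries. Between the mutants the difference was 0.33 (SE 0.10, limma adjusted p = 0.014), with all 3 kah-deltaznf libraries above all 3 kah-deltaATG libraries and a size under the fold limit for a call.

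The cn gene (2R, 7782797 to 7785067, minus strand) encodes kynurenine 3-monooxygenase of the same branch. It had 3, 0 and 0 reads in kah-deltaATG, 2, 0 and 5 in kah-deltaznf and 1, 0 and 0 in w1118, and was tested in no comparison. A difference was not detectable at this depth. Most of the cn exons, 1229 bases, overlap an antisense RNA gene, so that these few reads need not be from cn.

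In the pteridine branch, Pu (2R, 21175315 to 21182608, plus strand) encodes GTP cyclohydrolase I, the entry step. It had 888, 1019 and 1096 normalized counts in kah-deltaATG, 575, 683 and 620.2 in kah-deltaznf and 958, 1080.02 and 1180.5 in w1118. All 3 kah-deltaznf libraries were below the other 6. Pu fell in kah-deltaznf, with a log2 difference of -0.77 (SE 0.11, limma adjusted p = 7.8e-05). The value in kah-deltaATG was -0.09 (SE 0.10, limma adjusted p = 0.46), with a 95% interval of -0.32 to 0.13. The difference between kah-deltaznf and kah-deltaATG was itself called, at -0.67 (SE 0.10, limma adjusted p = 4.2e-04).

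The second step is catalysed by 6-pyruvoyltetrahydropterin synthase, encoded by pr (2L, 20073719 to 20075458, minus strand). The pr gene had 978, 993 and 915 normalized counts in kah-deltaATG, 1203, 1018 and 1046 in kah-deltaznf and 649, 648 and 699 in w1118. All 6 mutant libraries were above the 3 w1118 libraries. It rose in kah-deltaznf, with a log2 difference of 0.71 (SE 0.09, limma adjusted p = 5.9e-05). In kah-deltaATG the value was 0.54 (SE 0.07, limma adjusted p = 3.0e-04), under the fold limit, and 0.62 with the mitochondrial split as a term, past it. The difference between the mutants was not called, at 0.18 (SE 0.08, limma adjusted p = 0.097). Pu and pr, which encode consecutive enzymes, had fold changes of opposite sign in kah-deltaznf.

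Sepiapterin reductase, which makes tetrahydrobiopterin, is encoded by Sptr (X, 8463296 to 8464438, minus strand, 1 exon). Sptr had 86.4, 66.7 and 56.3 normalized counts in kah-deltaATG, 721, 664 and 648 in kah-deltaznf and 66.1, 67.8 and 67.5 in w1118. The 3 kah-deltaznf libraries stood far above the other 6, and kah-deltaATG overlapped with w1118. Sptr rose in kah-deltaznf, with a log2 difference of 3.32 (SE 0.11, limma adjusted p = 2.2e-08) against w1118 and 3.28 (SE 0.15, limma adjusted p = 4.0e-08) against kah-deltaATG. In kah-deltaATG against w1118 it was 0.04 (SE 0.19, limma adjusted p = 0.87), with a 95% interval of -0.38 to 0.46. The last 54 bases of Es2, on the plus strand, overlap the Sptr exon. Es2 averaged 518 ± 25 in kah-deltaATG, 473 ± 20.4 in kah-deltaznf and 315 ± 12.3 in w1118 (SD, n = 3 each). It was called higher in kah-deltaATG, at 0.72 (limma adjusted p = 1.5e-04). In kah-deltaznf it was at 0.587 (limma adjusted p = 3.0e-04), just under the fold limit for a call. The difference between the mutants was not called, at -0.13 (limma adjusted p = 0.23).

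CG12116 (X, 8467443 to 8469012, minus strand, 1 exon) is placed with the pteridine enzymes by the list used here. It had 29.1, 18.8 and 22.7 normalized counts in kah-deltaATG, 323, 422 and 459.7 in kah-deltaznf and 504, 423 and 421 in w1118. The highest kah-deltaATG library was far below the lowest of the other 6, and kah-deltaznf overlapped with w1118. The log2 fold change of CG12116 was -4.21 in kah-deltaATG and -0.17 in kah-deltaznf against w1118, and 4.04 in kah-deltaznf against kah-deltaATG. These values are what the group was chosen for and carry no test. The kah-deltaATG libraries still held 28, 18 and 23 reads of the gene.

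**Figure D2:**
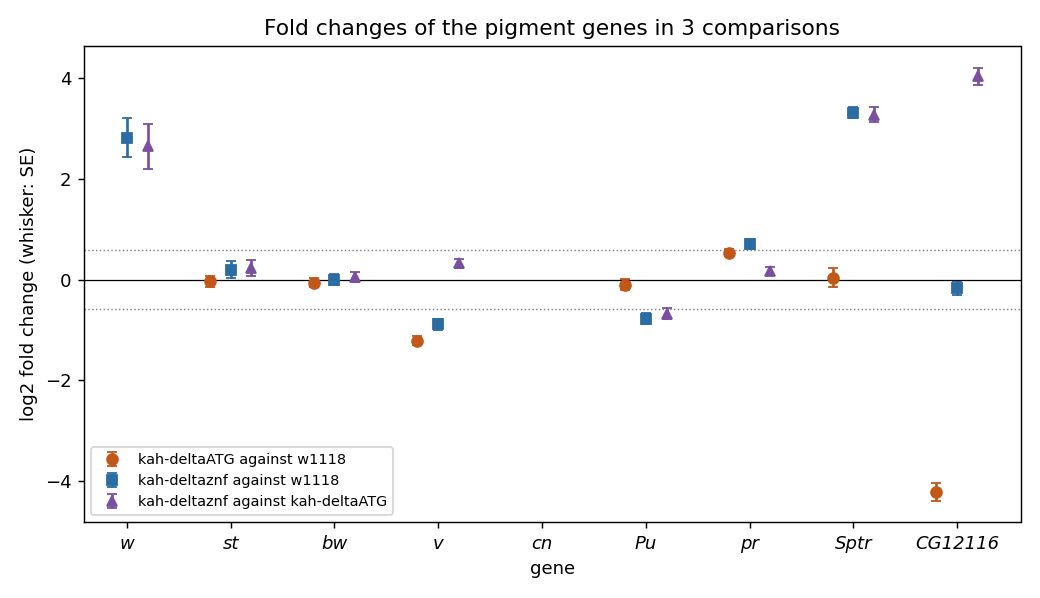
Log2 fold change (y axis; whiskers are SEs) of each pigment gene in kah-deltaATG against w1118, kah-deltaznf against w1118 and kah-deltaznf against kah-deltaATG; dotted lines mark 0.59 in either direction. Sptr lies at 0.04 and 3.32 in the first and second comparison and CG12116 at -4.21 and -0.17, cn has no value, and w has none in kah-deltaATG.

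Sptr and CG12116 lie on the same strand with 3004 bases between them, CG12116 on the 5' side of Sptr. Of 13 further tested genes within 60 kb of Sptr, 4 were called in kah-deltaATG and 7 in kah-deltaznf, beside 25.3% and 49.3% of all genes tested, and their log2 fold changes lay between -0.26 and 1.91 in kah-deltaATG and between -0.78 and 2.10 in kah-deltaznf. Among the 3 tested genes on each side of CG12116, Sptr included, CG15347, which lies beyond Es2 on the 3' side of Sptr, averaged 2760.1 ± 77.6 in kah-deltaATG, 1895 ± 99.3 in kah-deltaznf and 3264 ± 167 in w1118 (SD, n = 3 each). It fell in kah-deltaznf, with a log2 difference of -0.78 (limma adjusted p = 9.1e-06). On the other side otu, a gene needed in the female germline, averaged 69.2 ± 5.02 in kah-deltaATG, 81 ± 19.2 in kah-deltaznf and 17.9 ± 2.46 in w1118 and was called higher in both mutants. CG33181 rose in kah-deltaATG, at 0.65 (limma adjusted p = 2.8e-04), and the adhesion gene Nrg was not called in either mutant.

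**Figure D3:**
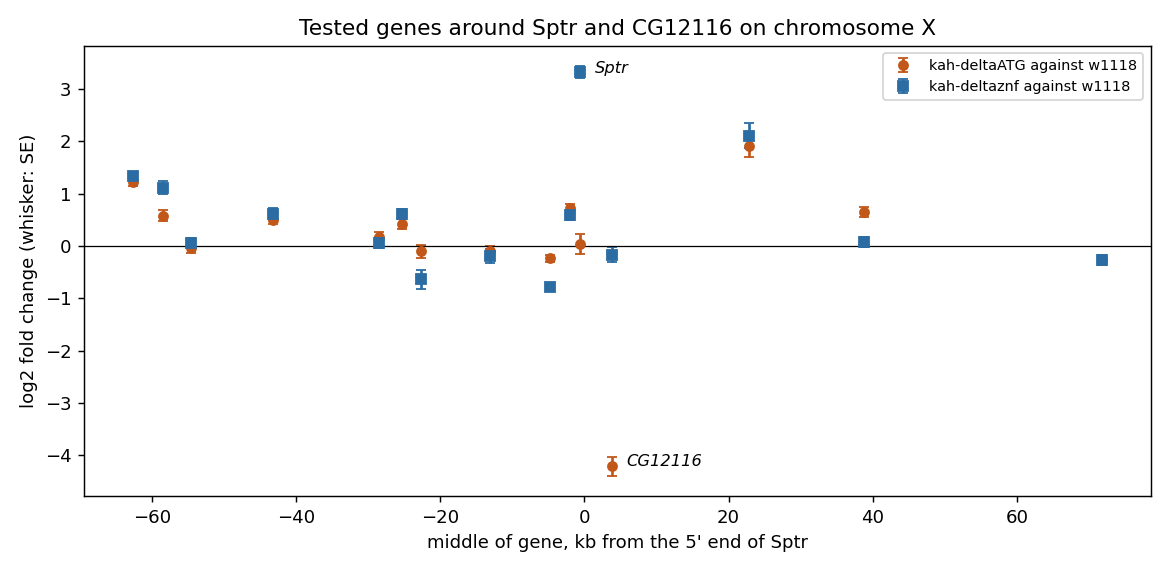
Log2 fold change (y axis; whiskers are SEs) against the distance in kb from the 5' end of Sptr to the middle of each tested gene, for kah-deltaATG and for kah-deltaznf, both against w1118. Sptr at 3.32 in kah-deltaznf and CG12116 at -4.21 in kah-deltaATG lie outside the range of the other genes, which is -0.78 to 2.10 over both comparisons. The low value of CG12116 in kah-deltaATG was a reason for choosing the group, so that its place there is a description alone.

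Around w the nearest tested gene, CG32795, lies on the same strand, with 31 bases between its 5' end and the 3' end of w. It averaged 1111 ± 56.4 in kah-deltaATG, 965 ± 20.2 in kah-deltaznf and 1536 ± 109 in w1118 (SD, n = 3 each). CG32795 fell in kah-deltaznf, with a log2 difference of -0.66 (limma adjusted p = 4.1e-05). In kah-deltaATG it was at -0.46 (limma adjusted p = 8.3e-04), under the fold limit. The difference between the mutants was not called, at -0.20 (limma adjusted p = 0.041). The kirre gene, whose span contains w on the opposite strand, was not called in any comparison. By start position, 3 tested genes were taken on each side of w. Of these, 0 were called in kah-deltaATG (5 of them tested), beside 25.3% of all genes tested. In kah-deltaznf 2 were called, both lower, CG32795 and Syx4, beside 25.5% of all genes called lower there. In kah-deltaATG CG32795 and Syx4 had an unadjusted limma p under 0.05, and edgeR and DESeq2 also called 0. Both passed the adjusted limit there, Syx4 at -0.42 (limma adjusted p = 0.022), and missed a call by the fold limit alone. In kah-deltaznf against kah-deltaATG CG14418 was called higher, at 1.98, and Syx4 lower, at -0.78 (limma adjusted p = 0.0022). Of all genes, 5.46% were called higher and 12.8% lower there. CG14418 was low, at 5.10 ± 2.70 in kah-deltaATG, 21.5 ± 4.82 in kah-deltaznf and 14.9 ± 9.76 in w1118. It was not tested in kah-deltaATG against w1118. Between the mutants it passed the filter on low values only with the kah-deltaznf libraries, where it was highest, so that its call there is a description. CG14419 and CG3588 were not called in any comparison.

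The genes whose profile over the 9 libraries was closest to that of w were blanks, CG13465 and Rpt3R, with root mean square differences of 0.41, 0.46 and 0.50 between log2 values centred on each gene. The blanks gene averaged 81.1 in kah-deltaATG, 549.7 in kah-deltaznf and 94.3 in w1118. CG13465 averaged 193 in kah-deltaATG, 1420.2 in kah-deltaznf and 206 in w1118. Rpt3R averaged 22.9 in kah-deltaATG, 74.5 in kah-deltaznf and 14.8 in w1118. The blanks and CG13465 genes lie on 3L and Rpt3R on 3R, and w is on X. For CG12116 the closest were CG43680, CG8908 and CR44030, at 0.82, 0.88 and 0.93, which is a looser likeness. CG8908 averaged 24.9 in kah-deltaATG, 166 in kah-deltaznf and 115 in w1118. Its low level in kah-deltaATG follows from its being picked for likeness to CG12116. The levels of the genes closest to w follow from their choice in the same way, so that all these values are a description alone.

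Per kb of gene length, the order of the group in w1118 was pr (620.2 ± 27.3 normalized counts per kb), v (542 ± 55.4), Pu (499 ± 51.7), CG12116 (286 ± 30.1), bw (120.4 ± 8.33), st (86.3 ± 3.91), Sptr (58.7 ± 0.779), w (1.6 ± 0.698) and cn (0.169 ± 0.292, SD, n = 3 each). In this order v and Pu lay within 1 SD of each other. The order differed in the mutants. In kah-deltaznf Sptr was second at 593 ± 33.5 per kb, behind pr at 1015 ± 93.1, and v and Pu lay at 292 ± 15.6 and 291 ± 25.2. In kah-deltaATG CG12116 was at 15 ± 3.34 per kb, below Sptr at 61.1 ± 13.4, whereas it was above Sptr in w1118.

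**Figure D4:**
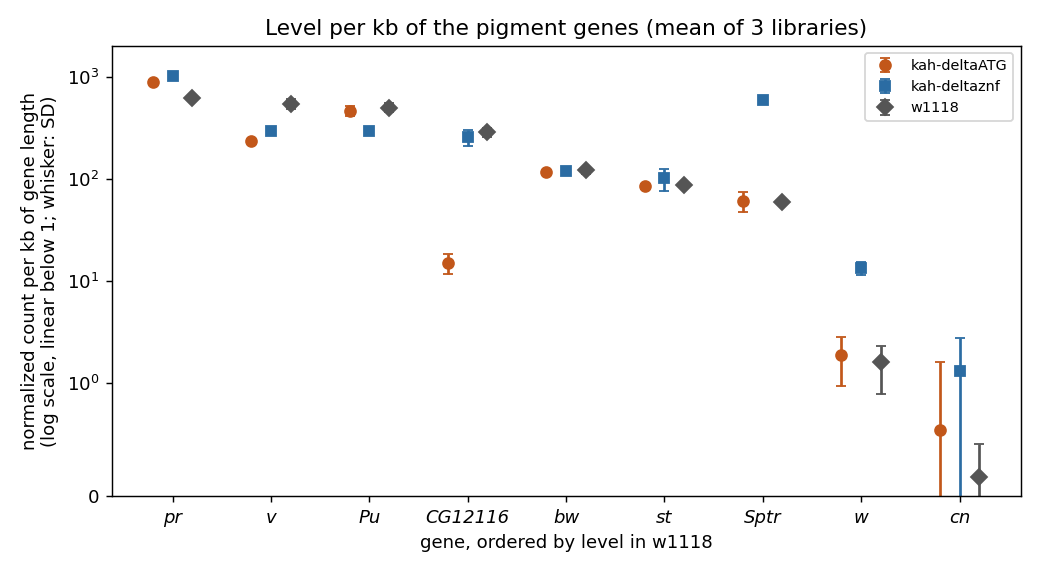
Mean normalized count per kb of gene length (y axis, log scale, linear below 1; whiskers are SDs over 3 libraries) of the pigment genes in kah-deltaATG, kah-deltaznf and w1118, with the genes in their w1118 order. Sptr in kah-deltaznf (593 per kb) and CG12116 in kah-deltaATG (15.0 per kb) are the values that leave this order most visibly.

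Further genes of the same pathways were taken from 7 lists with 50 genes in all, the 9 members included. Without w and CG12116, 45 of 48 genes were tested in each comparison. In kah-deltaATG 5 were called higher and 3 lower, which is 17.8% against 25.3% of all genes tested, with a median log2 fold change of 0.00 beside -0.02 over all genes. In kah-deltaznf 14 were called higher and 9 lower, which is 51.1% against 49.3%, with a median of 0.14 beside 0.00. In kah-deltaznf against kah-deltaATG 3 were called higher and 5 lower, which is 17.8% against 18.3%. The 8 genes called in kah-deltaATG were v, cin, GstO1, bur, rb, HPS1, Blos2 and ple. Both comparisons share the w1118 libraries.

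The pteridine list holds 12 genes besides CG12116, of which 11 were tested. Among them cin and mal act in making the molybdenum cofactor of xanthine dehydrogenase. The cin gene averaged 2333 ± 196 normalized counts in kah-deltaATG, 2931 ± 122 in kah-deltaznf and 1045 ± 119 in w1118 (SD, n = 3 each), and it rose in both mutants, by 1.17 (SE 0.10, limma adjusted p = 1.8e-05) in kah-deltaATG and 1.496 (SE 0.09, limma adjusted p = 4.0e-07) in kah-deltaznf on the log2 scale. The mal gene rose in kah-deltaznf, by 0.997 (SE 0.10, limma adjusted p = 8.9e-06), and had 0.56 in kah-deltaATG, under the fold limit. The phenylalanine hydroxylase gene Hn fell in kah-deltaznf. The remaining genes of the list, cl, DhpD, ry, Pcd and Dhpr, were tested and not called by limma in any comparison. Pcd, pterin-4a-carbinolamine dehydratase, which regenerates the cofactor, was just under the fold limit, at -0.58 in each mutant against w1118. In kah-deltaznf it was called by edgeR (-0.61), without kah-deltaznf replicate 2 (-0.63), without w1118 replicate 2 (-0.60) or 3 (-0.62) and with the mitochondrial split as a term (-0.63). In kah-deltaATG it was called without kah-deltaATG replicate 2 (-0.63) or 3 (-0.66), without w1118 replicate 2 (-0.61) or 3 (-0.62) and with that term (-0.68). DhpD, at -0.56 in kah-deltaznf, was called there without kah-deltaznf replicate 2 (-0.66) or w1118 replicate 1 (-0.67). The se gene, of the drosopterin branch, was not tested. In the ommochrome list CG6950 fell in kah-deltaznf, at -0.72 (SE 0.10, limma adjusted p = 8.4e-05). In kah-deltaATG it was at -0.50 (limma adjusted p = 0.0016), under the fold limit. KFase was not called by limma in any comparison and cd was not tested.

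All 4 listed genes that use tetrahydrobiopterin fell in kah-deltaznf, where 25.5% of all genes were called lower. They were ple, tyrosine hydroxylase, at -1.58 (SE 0.14, limma adjusted p = 3.1e-06), Hn at -0.65 (SE 0.09, limma adjusted p = 1.2e-04), Trh, tryptophan hydroxylase of neurons, at -0.92 (SE 0.14, limma adjusted p = 2.0e-04), and Nos, nitric oxide synthase, at -1.22 (SE 0.20, limma adjusted p = 3.3e-04). In kah-deltaATG ple fell, at -0.65 (SE 0.14, limma adjusted p = 0.0036), a call lost without kah-deltaATG replicate 1 (-0.55) or w1118 replicate 3 (-0.54) and at -0.48 with the mitochondrial split as a term, and Hn, Trh and Nos had 0.05, 0.04 and -0.12. The 4 were also called lower in kah-deltaznf than in kah-deltaATG, between -1.09 and -0.70, where 12.8% of all genes were. Under the test against a log2 difference of 0.59, Hn and Trh lost their call in kah-deltaznf against w1118, and all 4 lost it between the mutants. Sptr, whose product makes the cofactor, was higher in kah-deltaznf, and Pu was lower. The ple gene is also among 15 genes of late embryonic differentiation, of which 1 was called higher and 3 lower in kah-deltaATG and 1 higher and 11 lower in kah-deltaznf. Their summed normalized counts were 256876 to 298979.9 in kah-deltaATG, 181276 to 229342 in kah-deltaznf and 343320.04 to 450852 in w1118. Of 10 maternal genes, 8 were called higher in each mutant, with sums of 8345 to 8583 in kah-deltaATG, 9905 to 11136 in kah-deltaznf and 5754 to 6714 in w1118. Of 9 genes of embryo patterning, 1 was called higher in kah-deltaATG and 2 in kah-deltaznf. Beside these 3 lists, 14.7% of all genes tested were called higher and 10.6% lower in kah-deltaATG. In kah-deltaznf the shares were 23.8% and 25.5%. The patterning counts are near the shares called higher. The part of embryo age or maternal RNA in the values above was not tested.

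The other lists mixed directions. Among the omega glutathione transferases GstO1 rose in both mutants (1.23 in kah-deltaATG and 1.68 in kah-deltaznf), at low levels of 43.8 ± 8.79 in kah-deltaATG, 59.9 ± 6.48 in kah-deltaznf and 18.1 ± 3.15 in w1118 (SD, n = 3 each). GstO2 rose and GstO3 fell in kah-deltaznf, at 0.92 and -0.61. In kah-deltaATG they were at 0.52 and -0.36 (limma adjusted p = 6.0e-04 and 0.0034), under the fold limit. The GstO3 call was lost without kah-deltaznf replicate 3 (-0.53) and with the mitochondrial split as a term (-0.59, under the limit). In the supply of purines, from which GTP is made, bur, GMP synthetase, rose in both mutants (1.05 in kah-deltaATG and 1.27 in kah-deltaznf). Prat2 and AdSS rose in kah-deltaznf (0.69 and 0.64), and the other 5 genes were not called against w1118. In kah-deltaATG Prat2 was at 0.03 (limma adjusted p = 0.90) and AdSS at 0.34 (limma adjusted p = 0.0010), under the fold limit. Of 15 pigment granule genes, which act in trafficking to the lysosome and related organelles, rb, a subunit of the AP-3 adaptor, rose in both mutants with no overlap of libraries, at 2154 ± 88.6 in kah-deltaATG, 2673 ± 136 in kah-deltaznf and 1006 ± 5.5 in w1118. Its log2 fold change was 1.10 (SE 0.06, limma adjusted p = 1.9e-06) in kah-deltaATG and 1.41 (SE 0.08, limma adjusted p = 1.6e-07) in kah-deltaznf. The AP-3 subunit genes cm and or and the vesicle fusion gene dor rose in kah-deltaznf (0.78, 0.85 and 0.85). In kah-deltaATG these genes were also higher, at 0.51, 0.52 and 0.47 (limma adjusted p = 0.0040, 0.0014 and 0.0015), under the fold limit. Their differences between the mutants were not called. Blos2, of the BLOC-1 complex, rose in both mutants (0.72 in kah-deltaATG and 0.95 in kah-deltaznf). HPS1, of the BLOC-3 complex, fell in both (-0.67 in kah-deltaATG and -0.61 in kah-deltaznf). In kah-deltaATG the Blos2 call was lost without w1118 replicate 3 (0.57) and with the mitochondrial split as a term (0.55). In kah-deltaznf the HPS1 call was lost without kah-deltaznf replicate 3 (-0.56), without w1118 replicate 3 (-0.57) and with the mitochondrial split as a term (-0.58).

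**Figure D5:**
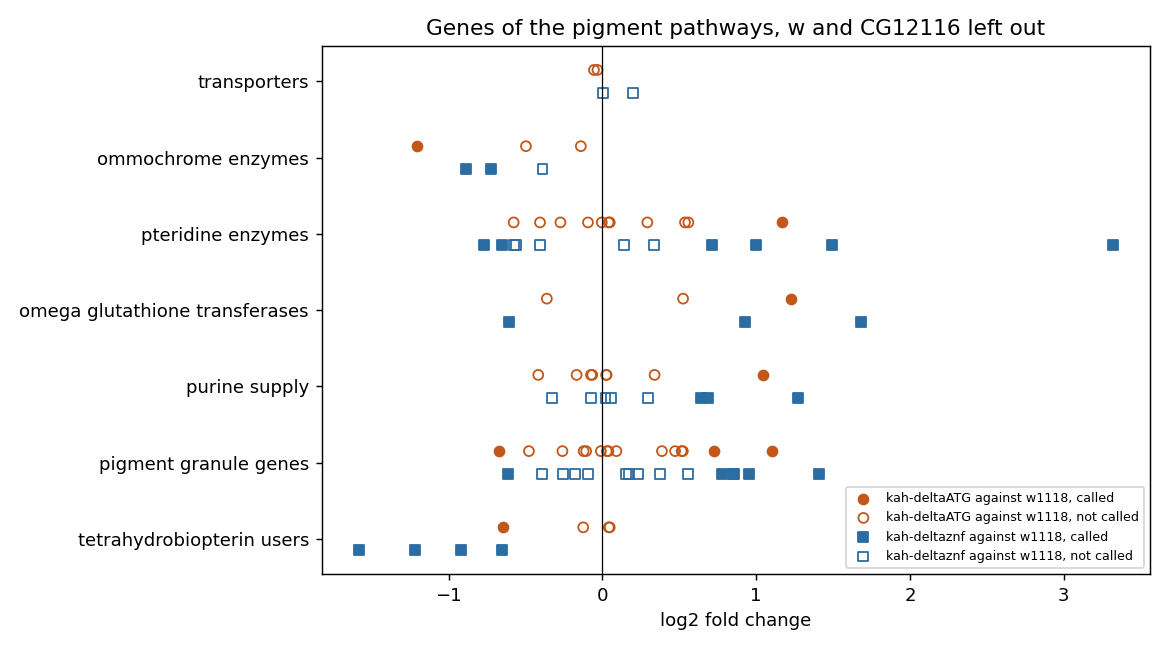
Log2 fold change (x axis) of each tested gene of the 7 pathway lists (rows) in kah-deltaATG and kah-deltaznf, both against w1118; filled symbols are called and open symbols are not, and w and CG12116 are left out. The 4 tetrahydrobiopterin users lie between -1.58 and -0.65 in kah-deltaznf, and Sptr is the point at 3.32.

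Markers of tissues that make or store pigment precursors, and of the eye, were read beside these genes. For comparison, 14.7% of all genes tested were called higher and 10.6% lower in kah-deltaATG. In kah-deltaznf 23.8% were called higher and 25.5% lower. Of 7 Malpighian tubule markers 0 were called in kah-deltaATG and 2 in kah-deltaznf, both lower, with summed counts of 4594 to 5042 in kah-deltaATG, 3606 to 3831 in kah-deltaznf and 4974 to 6241 in w1118. The tubule count in kah-deltaznf is near the share of all genes called lower there. The called genes were Irk2, a potassium channel, and CG31547. In kah-deltaATG these 2 had an unadjusted limma p under 0.05, and edgeR and DESeq2 called 0 of the 7. Of 6 fat body markers 3 were tested and Adh was called, higher in kah-deltaATG, and the larval storage protein genes Lsp2 and Lsp1beta were at means under 1 in every genotype. Of 6 adult eye markers 5 were listed, and Rh4, Rh5 and Rh6 were tested. Rh5 and Rh6 fell in kah-deltaznf (-1.39 and -1.40) and Rh4 fell in kah-deltaATG (-0.60). Of 8 general embryo tissue markers btl, the receptor of the tracheal system, was called, higher in both mutants. Whether these tissues have a part in the values of v, Pu or Sptr was not tested.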

How the data were processed

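The study sequenced whole-embryo RNA of kah-deltaATG, kah-deltaznf and w1118 embryos, 3 libraries each. The authors aligned reads to the BDGP6 genome with HISAT2 2.0.5, counted them per gene with featureCounts 1.5.0-p3 and divided them by DESeq2 1.20.0 size factors. The deposited values are therefore a signal, normalized counts, in 1 table per mutant, and gene length is another deposited column. Whole reads were recovered from them for all values (tolerance 1e-06), and the w1118 reads of the 2 tables were equal at each of 14306 shared genes. The mutant columns of the kah-deltaATG table name Kah but not the allele and were assigned by the comparison the table is named for. The authors' own fold change and p-value columns were not used, and 0 expression columns were left out.

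Each mutant was compared with w1118 inside its own table, and the mutants with each other on recovered reads of all 9 libraries scaled together by the median of ratios. The test was limma 3.58.1 with a trend on log2 of the value plus 1, for genes at 10 or more in at least 3 libraries. Intervals of 95% are the estimate plus and minus its SE times the t quantile at the total degrees of freedom of limma. Calls were tested on simulated data with the same numbers of libraries, 200 changed genes and the spread of the w1118 libraries alone. Of 2-fold changes 88.5% to 88.9% were recovered and of 4-fold changes 100%, over 10798 to 10900 genes, and 9 to 11 unchanged genes were called. Far fewer genes changed there than were called in the data, so that these shares need not hold for the data. Alternatives were edgeR 4.0.16, DESeq2 1.42.0, TMM scaling, pseudocounts of 0.5 and 5, no filter or one at 50, a test against the fold limit, other sets of libraries, a replicate block, leaving out each library and, added after the data were seen, a term for the mitochondrial split at 13%.

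The members and the gene lists were chosen with earlier results of these data known. Named genes are the 9 members, list genes called in at least 1 mutant against w1118, the 3 tested genes on each side of w and of CG12116, and the 3 genes closest to each in profile. Exon overlaps came from Ensembl annotation of the same assembly (gene coordinates equal for the 9 members). Symbols of 5 list genes were matched through gene identifiers. Sequences were not used here, and the motif search planned for promoters was not run. Depth was 17990440 to 20036769 reads per library.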

Additional observations from a re-analysis of the deposited data

Results flagged for a closer look

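Of 45 tested genes of the pigment pathways, 8 (17.8%) had effects in the mutants that differed by a test of kah-deltaznf against kah-deltaATG itself (limma, adjusted over 11115 genes). The share of all genes was 18.3%, so that the count is close to the background and only the single genes are listed. Sptr was higher in kah-deltaznf than in kah-deltaATG, by 3.28 on the log2 scale (limma adjusted p = 4.0e-08), with all 3 kah-deltaznf libraries above all 3 kah-deltaATG libraries, and so was Prat2, by 0.66 (limma adjusted p = 0.0031). Pu differed by -0.67 (limma adjusted p = 4.2e-04), Hn by -0.70 (limma adjusted p = 1.2e-04), ple by -0.93 (limma adjusted p = 2.5e-04), Trh by -0.96 (limma adjusted p = 2.0e-04) and Nos by -1.09 (limma adjusted p = 8.7e-04). The granule gene car, named after its values were seen because it was not called against w1118 in either mutant, differed by 0.66 (limma adjusted p = 2.3e-04), with -0.48 in kah-deltaATG and 0.17 in kah-deltaznf against w1118. The Prat2 call was lost without kah-deltaATG replicate 2 (0.51). When the test asked for a difference above 0.59 in size, Sptr alone of the 8 was called.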

How the results depend on the processing

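The test against a log2 fold change of 0.59 was the one alternative that moved counts of calls by over 1.5 times. It called 1041 genes (796 higher and 245 lower) in kah-deltaATG and 3255 in kah-deltaznf against w1118 and 228 in kah-deltaznf against kah-deltaATG, in place of 2780, 5400 and 2031, and 4, 11 and 1 genes of the pigment pathways in place of 8, 23 and 8. Under it v in both mutants and Sptr in kah-deltaznf were still called. The pathway calls lost were Blos2, GstO1, HPS1 and ple in kah-deltaATG, AdSS, Blos2, CG6950, GstO3, HPS1, Hn, Prat2, Pu, Trh, cm, or and pr in kah-deltaznf, and all but Sptr between the mutants. Leaving out each library gave 2319 to 3210, 4942 to 5470 and 1685 to 2232 genes in the 3 comparisons, and 7 to 9, 21 to 26 and 7 to 8 of the pathways.

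The log2 fold changes of uncalled genes near 0 changed sign under some alternatives. Leaving out 1 library gave ranges of -0.082 to 0.027 for st, -0.107 to 0.011 for bw, -0.116 to 0.183 for Sptr, -0.00492 to 0.098 for Hn, -0.169 to 0.172 for Prat2, -0.026 to 0.120 for Trh and -0.312 to 0.017 for Nos in kah-deltaATG, and of -0.062 to 0.058 for bw in kah-deltaznf and -0.00592 to 0.116 for bw in kah-deltaznf against kah-deltaATG. The mitochondrial term gave 0.134 for st, -0.00397 for Prat2 and 0.223 for Nos in kah-deltaATG. For bw in kah-deltaznf edgeR gave -0.023, DESeq2 -0.00509, TMM scaling -0.00495 and the fit of all 9 libraries -0.00214. The cause was not tested. Of 1486 recomputed values of single genes, 1426 kept their direction and side of the threshold.

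The replicate numbers of the labels did not pair the libraries: deviations of libraries with the same number correlated between -0.246 and 0.223. With the replicate block 2840, 5334 and 1991 genes were called, and 8, 23 and 8 of the pathways. The depth sets a limit for w and cn, which had at most 6 reads per library outside kah-deltaznf.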
